A study of Homo sapiens with 26 samples.

Results

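The estrogen receptor (ER) sites of PR-deficient T47D cells given estradiol (E2) plus R5020 were set against those of the same cells given E2 alone. T47D, a cell line established from a human breast cancer, has ER as well as the progesterone receptor (PR). E2 is the main natural estrogen and R5020 is a synthetic progestin. The members are all rows of the 2 lists of called sites, 5663 with E2+R5020 and 7742 with E2. Together they are 13405 of the 87206 sites in the 10 lists of the series. A site of 1 list that overlapped a site of the other by 1 bp or more was called kept. E2+R5020 sites that met no E2 site were called gained, and E2 sites that met no E2+R5020 site were called lost.

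ER is a transcription factor that binds DNA, mostly at enhancers far from promoters, once an estrogen occupies it, and it often does so where forkhead and other luminal factors have opened the chromatin. PR is itself a product of an estrogen target gene and acts in the same way with progestins. In cells that carry both receptors, a progestin-bound PR is known to move ER to other sites. Cells that lack PR therefore serve to ask which changes of ER binding on adding a progestin can occur without it.

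ChIP-seq, the sequencing of DNA fragments recovered with an antibody, was done on steroid-deprived cells after 45 min of hormone. PR-deficient cells received 10 nM E2 with 10 nM R5020, 10 nM R5020, 10 nM E2 or vehicle, and an anti-ER antibody was used. T47D cells with PR received the same treatments and gave ER lists, PR lists and 1 list from a sequential ER and PR immunoprecipitation (reChIP). With 1 library in each group there is no replicate error and no test of the conditions, and every interval below covers counting error over sites only. The labels do not say how PR was lost or whether the PR-deficient cells are 1 clone. The loss of PR was not checked here, since no PR list of these cells was analysed. All 3 ER lists of PR-deficient cells had the same vehicle library subtracted, and its part in their overlap was not tested. Read depth is unknown. Positions are given on hg19, and genes near the sites were not analysed here.

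The 2 lists resembled each other in form. The authors' score rose in even steps of 1.59 in the E2+R5020 list and 1.61 in the E2 list, and the lowest score kept was 16 steps in each. The median site was 1329 bp long with E2+R5020 and 1076.5 bp with E2. Together the sites covered 8.90 Mb with E2+R5020 and 9.92 Mb with E2. The median score was 21 steps with E2+R5020 and 25 steps with E2. What a step stands for is not given, so scores are used only to order sites within a list.

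Most ER sites seen with both hormones were already listed with E2, while many E2 sites were no longer listed once R5020 was added. Of the E2+R5020 sites, 4269 of 5663 were kept (75.4%, exact 95% interval 74.2 to 76.5) and 1394 were gained (24.6%, 23.5 to 25.8). Of the E2 sites, 4296 of 7742 were kept (55.5%, 54.4 to 56.6) and 3446 were lost (44.5%, 43.4 to 45.6). Lost sites thus outnumbered gained sites. By DNA covered, the gained sites held 2.20 Mb and the lost sites 3.63 Mb. With the E2 list shortened to the length of the E2+R5020 list by score, 67.0% of each list was kept, with 1871 sites gained and 1866 lost. Lists of equal length give nearly equal numbers by construction, and the excess of lost sites is the difference in length between the lists, apart from sites that met several of the other list.

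In T47D cells with PR the same 2 treatments shared far fewer sites. There 859 of 19220 E2+R5020 sites (4.47%, 4.18 to 4.77) and 781 of 4014 E2 sites (19.5%, 18.2 to 20.7) were kept. The PR-deficient share was above the T47D share by 70.9 percentage points for E2+R5020 sites (Newcombe 95% interval 69.7 to 72.1) and by 36.0 points for E2 sites (34.4 to 37.7). The T47D lists were unlike in form. Their median site was 209 bp with E2+R5020 and 1171 bp with E2. Their score step was 4.21 with E2+R5020 and 0.582 with E2. The lowest score kept was 4 steps with E2+R5020 and 26 with E2, or 16.86 and 15.12 in the deposited score. The part of these differences in the lower sharing of T47D was not tested. With lists of equal length the PR-deficient share was above that of T47D by 60.7 points for E2+R5020 sites and by 60.8 points for E2 sites. Loss of PR and other differences between the 2 lines cannot be told apart.

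**Figure D1:**
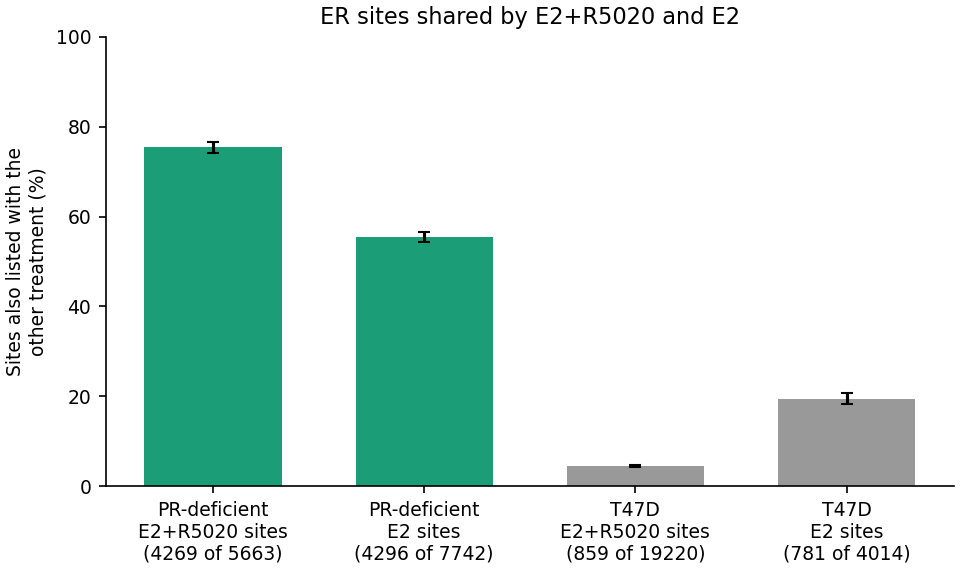
Share of ER sites (%, bars) that were also listed with the other of the 2 treatments, for the E2+R5020 and E2 lists of PR-deficient cells and of T47D cells. Lines are exact 95% intervals over sites, 1 library each. The bars of PR-deficient cells stand at 75.4% and 55.5%, and those of T47D cells at 4.47% and 19.5%.

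Kept sites coincided closely. Among 4080 pairs in which 1 site of each list met only the other, the median overlap was 1071 bp and the median distance between centres was 104 bp (quartiles 46.5 and 224.1). In 3799 of these pairs (93.1%) the overlap covered at least 50% of both sites. The E2+R5020 site was 1.01 times as long as its E2 partner at the median (quartiles 0.859 and 1.22). Score order was similar in the 2 lists, with a Spearman correlation of 0.79 for score and 0.72 for length across these 4080 pairs, which share the cells, the antibody and the subtracted vehicle library. A further 86 E2+R5020 sites spanned 2 or more E2 sites, and 60 E2 sites spanned 2 or more E2+R5020 sites.

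Few sites lay near the boundary of the overlap rule. The smallest overlap of such a pair was 68 bp, between an E2+R5020 site at chr7:48129543-48130213 and an E2 site at chr7:48127882-48129610, and the next was 330 bp. Just outside lay an E2+R5020 site at chr11:118788267-118790110, which missed an E2 site at chr11:118790112-118791196 by 1 bp. Only 31 gained sites (2.22%) and 158 lost sites (4.59%) had a site of the other list within 1 kb. The median gained site lay 54.5 kb from the nearest E2 site, and the median lost site 56.1 kb from the nearest E2+R5020 site.

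The strongest sites were kept almost without exception. Of the 100 highest-scoring sites of each list, 1 was gained and 1 was lost. Of the 1000 highest, 5 were gained with E2+R5020 (0.5%, 0.163 to 1.16) and 28 were lost with E2 (2.80%, 1.87 to 4.02). In the highest-scoring quintile, 99.4% of the E2+R5020 sites (98.7 to 99.8) and 93.7% of the E2 sites (92.4 to 94.9) were kept. The share fell with each quintile in both lists, to 49.9% of the E2+R5020 sites (47 to 52.9) and 22.0% of the E2 sites (19.9 to 24.1) in the lowest. Gained sites were those nearest to the threshold: 55.2% of them had 16 or 17 score steps, against 29.9% of lost sites. Of kept sites, 17.4% of those in the E2+R5020 list and 7.36% of those in the E2 list did.

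**Figure D2:**
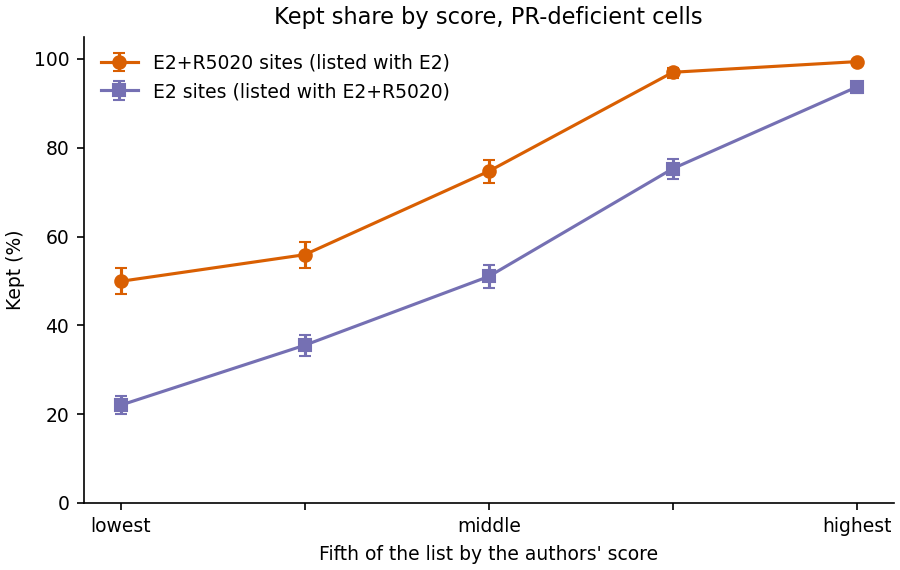
Share of sites kept (%) in each quintile of the E2+R5020 and E2 lists of PR-deficient cells, ordered by the authors' score from the lowest to the highest. Points are shares and lines exact 95% intervals over sites. The E2+R5020 points run from 49.9% to 99.4% and the E2 points from 22.0% to 93.7%.

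The kept sites of highest score were nearly the same in both lists. Of the 10 leading kept sites by E2+R5020 score, 9 overlapped one of the 10 leading kept sites by E2 score. The site at chr17:55975304-55978101 ranked 1 with E2+R5020, and its partner at chr17:55975357-55978114 ranked 4 with E2. The site at chr17:38476314-38479452 ranked 2 with E2+R5020, and its partner at chr17:38477036-38480561 ranked 1 with E2. The site at chr17:49020988-49022899 ranked 3 with E2+R5020, and its partner at chr17:49020935-49022710 ranked 3 with E2. These 3 were followed by sites at chr16:1239664-1245923, chr11:72900875-72904112, chr11:1817201-1818617, chr6:1639906-1642563, chr5:167742415-167744194, chr8:129153577-129155095 and chr12:132343951-132347096 with E2+R5020. The E2 counterparts of all but the last, together with chr19:41426361-41428162, made up the leading E2 sites. None of these 10 E2+R5020 sites lay at a site of the 3 T47D ER lists. All 10 lay at a reChIP site and 7 at a PR site of T47D cells given both hormones. Of all E2+R5020 sites, 20.3% lay at such a reChIP site and 11.5% at such a PR site. The PR-deficient R5020 list held 5 of the 10, against 25.1% of all E2+R5020 sites. Vehicle had been subtracted from the T47D ER lists, and likewise from the PR-deficient and reChIP lists. No vehicle list was analysed, so ER binding with vehicle could not be seen in either line.

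Further down the lists T47D ER sites were met. Among the 100 highest-scoring E2+R5020 sites, 23 (23%, 15.2 to 32.5) were listed in T47D cells with E2 and 38 (38.0%, 28.5 to 48.3) with both hormones, and 87 (87.0%, 78.8 to 92.9) lay at a reChIP site. Over all E2+R5020 sites the shares were 25% in the T47D E2 list, 14.8% in the T47D ER list of both hormones and 20.3% in the reChIP list. The 100 highest E2 sites gave 25, 37 and 87 for the same 3 lists, against 29.0%, 12.9% and 17% of all E2 sites. The highest sites were thus near the overall share for T47D E2 and above it for the other 2 lists. Among the 500 highest, 199 E2+R5020 sites (39.8%, 35.5 to 44.2) and 227 E2 sites (45.4%, 41.0 to 49.9) were listed in T47D cells with E2. The share at a reChIP site was lower there than among the 100 highest, at 63.4% of the E2+R5020 sites (59.0 to 67.6) and 58.8% of the E2 sites (54.3 to 63.2).

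A handful of gained sites scored high. The leading one, at chr17:80060563-80065423, was 4861 bp long and ranked 46 of the E2+R5020 sites, with 213 score steps. Its nearest E2 site lay 6.05 kb away, and of the other lists only the reChIP list held a site there. The next, at chr11:61461203-61465463, ranked 364 and lay at sites of the PR-deficient R5020 list, the T47D ER list of R5020, the T47D PR list of both hormones and the reChIP list. The third, at chr11:44597779-44600225, ranked 424 and was in no other list. The remaining 7 of the leading 10 lay at chr3:197318438-197319404, chr3:39190885-39192438, chr19:39339781-39342595, chr16:89893011-89895679, chr19:10735128-10736701, chr9:112281576-112282512 and chr3:51421732-51423214, with ranks from 767 to 1631. Of the 10, 4 were in the PR-deficient R5020 list, 3 in the reChIP list, 3 in the T47D PR list of both hormones, 2 in the T47D ER list of R5020 and 1 in that of both hormones. The shares of all E2+R5020 sites in these lists were, in the same order, 25.1%, 20.3%, 11.5%, 6.32% and 14.8%. None of the 10 was in the T47D E2 list, against 25% of all E2+R5020 sites. Of the 10, 4 were in no other list, against 33.1% of all E2+R5020 sites.

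Among the 1000 highest-scoring sites of each list, lost sites outnumbered gained sites. The leading one, at chr16:4418362-4420424, ranked 40 of the E2 sites with 297 score steps. Its nearest E2+R5020 site lay 45.0 kb away, and it was also in the PR-deficient R5020 list and the reChIP list. The next, at chr14:93476608-93479953, ranked 228 and lay 1.46 kb from an E2+R5020 site. The third, at chr11:129734205-129735401, ranked 298 and lay 8.13 kb from one. The other 7 lay at chr5:131713904-131714766, chr11:65340644-65345811, chr14:65787266-65788454, chr21:36100437-36101379, chr20:61700636-61701983, chr12:26253971-26255139 and chr6:125522969-125524121, with ranks from 477 to 604. Of the 10, 4 were in the T47D E2 list, 4 in the T47D ER list of both hormones, 3 in the reChIP list, 2 in the PR-deficient R5020 list, 2 in the T47D PR list of both hormones and 1 in the T47D ER list of R5020. The shares of all E2 sites in these lists were, in the same order, 29.0%, 12.9%, 17%, 14.7%, 11% and 5.09%. For 6 of the 10, a different E2+R5020 site lay within 10 kb, against 21.7% of all lost sites.

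Gained sites were long and lost sites short. The median gained site was 1410 bp (quartiles 1035 and 1891), and the median lost site 919 bp (744.2 and 1198.8). Kept sites lay between, with medians of 1299 bp in the E2+R5020 list and 1255 bp in the E2 list. The chance of being kept followed length in the E2 list, from 78.1% (76.0 to 80.2) of the longest quintile to 28.0% (25.7 to 30.3) of the shortest. In the E2+R5020 list it stayed between 71.7% and 80.0% in all 5 length quintiles, and the shortest sites were kept most often.

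**Figure D3:**
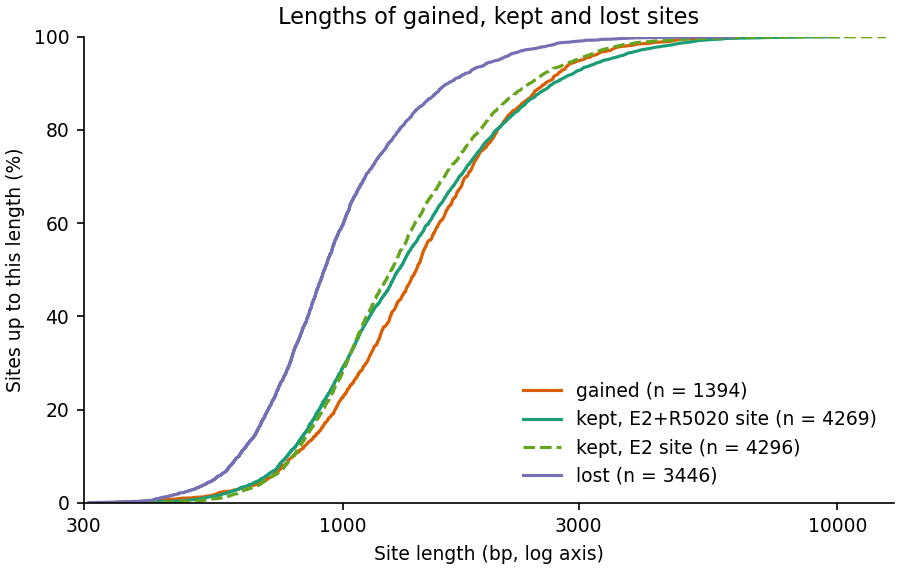
Cumulative share of sites (%) by length (bp, log axis) for gained sites, kept sites as listed with E2+R5020 and with E2, and lost sites of PR-deficient cells. The curve of lost sites lies to the left of the others, with a median of 919 bp, and that of gained sites to the right over most of its range, with a median of 1410 bp.

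Gained sites were set against the other lists beside lost sites, since each of them is in exactly 1 of the 2 lists. The largest contrast lay with R5020 alone in the same PR-deficient cells. By rule gained sites were in a list with R5020 and lost sites were not, so an R5020 list is not a neutral reference for them. Of the gained sites, 540 of 1394 (38.7%, 36.2 to 41.4) were at an R5020 site, against 268 of 3446 lost sites (7.78%, 6.90 to 8.72), a difference of 31.0 points (28.3 to 33.7). Over all E2+R5020 sites the share was 25.1% and over all E2 sites 14.7%. Kept sites stood between, at 20.7% (19.5 to 21.9) in the E2+R5020 list. In PR-deficient cells, 854 of the gained sites were therefore at no site of either hormone alone, though 37 of these lay at a T47D E2 site. The 268 lost sites were listed in PR-deficient cells with E2 and with R5020 but not with both together. The R5020 list was short in site length, with a median of 236 bp, and 81.2% of its sites lay within 1 step of its lowest score. With the lowest score of every list raised by 1 step, 24.3% of gained and 4.17% of lost sites were at an R5020 site.

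The contrast was also present per length of DNA. By this count the gained sites held 320.1 R5020 sites per Mb, the kept E2+R5020 sites 169.9 and the lost sites 85.1. Among sites of 800 to 1600 bp, a limit chosen after the lengths were seen, 31.0% of gained and 7.85% of lost sites were at an R5020 site. With centres within 200 bp of an R5020 centre, and the classes unchanged, the shares were 20.9% and 4.21%, a difference of 16.7 points. When the overlap had to cover 50% or more of each site, the difference was 1.17 points (0.529 to 2.02), a rule that sites over 2-fold apart in length cannot meet.

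The E2 list of T47D cells gave the opposite contrast. By rule lost sites were in an E2 list and gained sites were not, so a second E2 list is not a neutral reference for them. Only 40 of the gained sites (2.87%, 2.06 to 3.89) were listed there, against 867 of the lost sites (25.2%, 23.7 to 26.6), a difference of -22.3 points (-23.9 to -20.5). Over all E2+R5020 sites the share was 25% and over all E2 sites 29.0%. Of kept sites, 32.2% of those in the E2+R5020 list (30.8 to 33.6) were listed in T47D cells with E2. The gained sites held 18.2 T47D E2 sites per Mb, the kept E2+R5020 sites 203.1 and the lost sites 236.5. Among sites of 800 to 1600 bp the difference was -22.0 points. Few sites of any class were listed both with R5020 in PR-deficient cells and with E2 in T47D cells. They were 3 gained sites (0.215%), 10 lost sites (0.290%), 46 kept E2+R5020 sites (1.08%) and 46 kept E2 sites (1.07%).

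**Figure D4:**
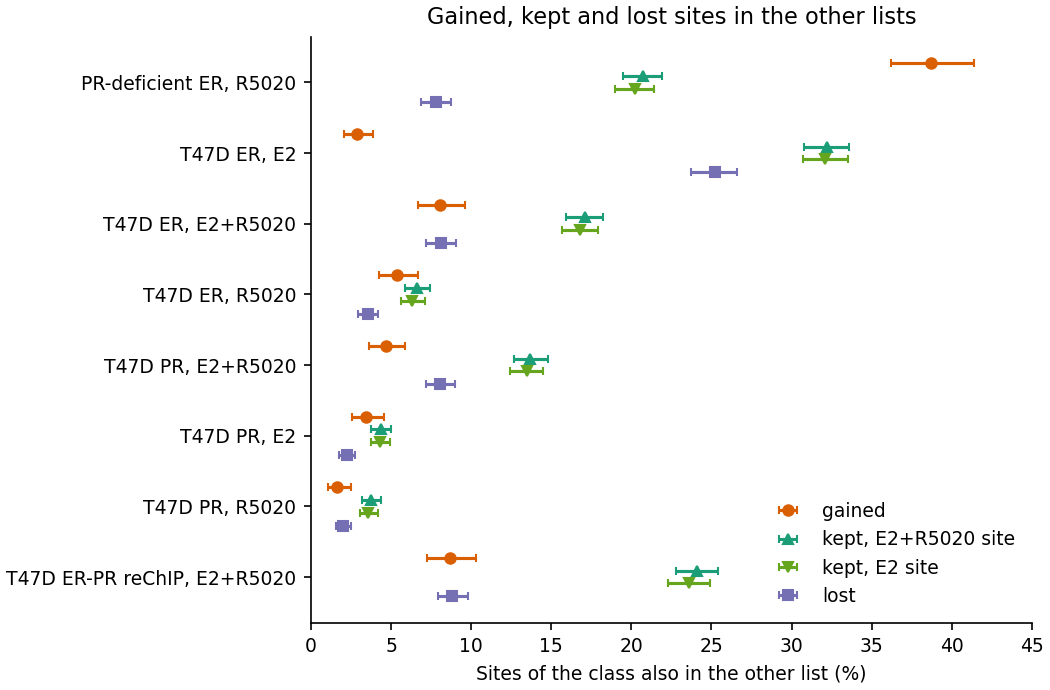
Share of gained, kept and lost sites of PR-deficient cells (%, horizontal axis) that were also in each of the 8 other lists (vertical axis), with exact 95% intervals over sites. Gained and lost sites stand apart in the PR-deficient R5020 list, at 38.7% and 7.78%, and in the T47D E2 list, at 2.87% and 25.2%, and lie close together in the others.

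Against the remaining 6 lists gained and lost sites differed by at most 3.38 points. In the T47D ER list of both hormones, 8.03% of gained and 8.10% of lost sites were found, a difference of -0.0619 points (-1.69 to 1.71), with 14.8% of all E2+R5020 sites and 12.9% of all E2 sites. In the T47D ER list of R5020, 5.38% of gained and 3.54% of lost sites were found, a difference of 1.84 points (0.580 to 3.27), with 6.32% of all E2+R5020 sites and 5.09% of all E2 sites. In the reChIP list the shares were 8.68% of gained and 8.82% of lost sites, a difference of -0.142 points (-1.83 to 1.69), with 20.3% of all E2+R5020 sites and 17% of all E2 sites. Kept sites exceeded both classes in these 3 lists, and 24.1% of those in the E2+R5020 list (22.8 to 25.4) were at a reChIP site.

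The PR lists of T47D cells mark places where PR binds when it is present. With both hormones, PR lay at 4.66% of gained and 8.04% of lost sites, a difference of -3.38 points (-4.75 to -1.87), and at 13.7% of kept E2+R5020 sites (12.7 to 14.8). The share over all sites was 11.5% with E2+R5020 and 11% with E2. In the PR list of E2 the shares were 3.44% of gained and 2.23% of lost sites, a difference of 1.21 points (0.208 to 2.39), with 4.13% of all E2+R5020 sites and 3.38% of all E2 sites. In the PR list of R5020 they were 1.65% of gained and 2% of lost sites, a difference of -0.352 points (-1.11 to 0.562), with 3.23% of all E2+R5020 sites and 2.88% of all E2 sites.

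Since kept sites had higher scores, the classes were also compared within quintiles of score. In the E2+R5020 list, gained sites were at R5020 sites of PR-deficient cells more often than kept sites in every quintile. The difference was 16.3 points (11.4 to 21.2) in the lowest quintile, 15.9 (10.4 to 21.3) in the next and 20.8 (14.4 to 27.3) in the middle one. It was 25.8 points (9.96 to 42.1) in the second highest, which held 34 gained sites. In the highest quintile it rested on 7 gained sites and its interval, -0.169 to 59.1, held 0. With centres within 200 bp of an R5020 centre, gained sites were above kept sites in 4 of the 5 quintiles. The same held in 4 of 5 among sites of 800 to 1600 bp. In each quintile the median gained site was longer than the median kept site, at 1230 against 964 bp in the lowest. The part of length was not tested further.

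Lost sites turned the pooled order round. Over the whole E2 list, kept sites were in the T47D E2 list more often than lost sites, 32.1% (30.7 to 33.5) against 25.2%. Within each of the 5 score quintiles the order was the other way. In the highest quintile 64.9% of lost sites (54.6 to 74.4) and 47.8% of kept sites (45.2 to 50.4) were in the T47D E2 list, a difference of 17.2 points (6.92 to 26.3). In the other 4 quintiles the difference lay between 7.83 and 8.83 points, and each interval lay above 0. The median length in the highest quintile was 1096 bp for lost and 1391 bp for kept sites. Among sites of 800 to 1600 bp the order held in 5 of 5 quintiles, and the part of length was not tested further. This order held in 2 of 5 quintiles when kept and lost were themselves defined by centres within 200 bp, and in 3 of 5 with all sites set to 200 bp. It held in 5 of 5 when only the match to T47D sites was made by centres.

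Within the same quintiles kept E2 sites were at R5020 sites more often than lost ones. Kept sites were also longer at the median in each, at 1236 against 867 bp in the lowest. Among sites of 800 to 1600 bp lost sites were above kept sites in 0 of 5 quintiles. With classes defined by centres within 200 bp, or with sites of 200 bp, they were above in 1 of 5. The part of length was not tested further. In the lowest quintile 10.9% of lost sites (9.22 to 12.8) and 38.5% of kept sites (33.3 to 43.9) were at an R5020 site of PR-deficient cells. In the highest, 5.15% of lost sites (1.69 to 11.6) and 11.8% of kept sites (10.2 to 13.5) were. Among kept E2 sites the share at R5020 sites thus fell as the E2 score rose, while the share in the T47D E2 list rose, being 7.65% (5.06 to 11) in the lowest quintile and 47.8% in the highest.

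**Figure D5:**
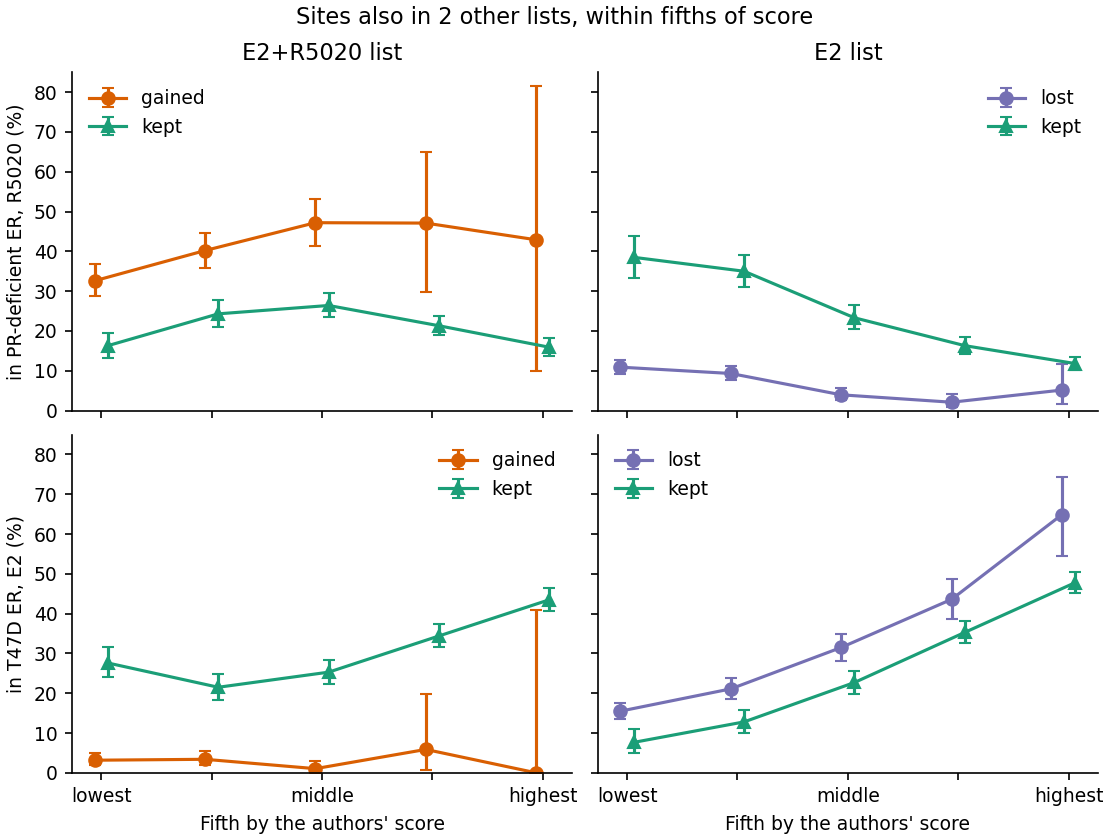
Share of sites (%) also in the PR-deficient R5020 list (upper panels) and in the T47D E2 list (lower panels), by quintile of the authors' score, for gained and kept sites of the E2+R5020 list (left) and lost and kept sites of the E2 list (right). Lines are exact 95% intervals over sites. Gained sites lie above kept sites for R5020 and below them for T47D E2, and lost sites lie the other way round.

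Seen from the R5020 list of PR-deficient cells, 1842 of its 9141 sites (20.2%, 19.3 to 21.0) met an E2+R5020 site and 1408 (15.4%, 14.7 to 16.2) met an E2 site. All 3 treatments shared 1078 of the R5020 sites (11.8%). A further 764 (8.36%, 7.80 to 8.94) met an E2+R5020 site only, and 330 (3.61%, 3.24 to 4.01) met an E2 site only. The other 6969 (76.2%) met neither. R5020 sites that met an E2+R5020 site had a median score of 7 steps, 1 above the lowest score of 6, and those that met none had 6.

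The lost sites that T47D cells also listed with E2 could be followed there. Of the 867 such lost sites, 158 (18.2%, 15.7 to 21.0) were at an ER site of T47D cells given both hormones, and of the 1380 such kept sites 375 (27.2%, 24.8 to 29.6) were. Counted over all 4014 T47D E2 sites the share was 19.5%. That value counts T47D sites and the 2 before it count PR-deficient sites, so they are not directly comparable. Seen from T47D, 2204 of the 4014 E2 sites were at an E2 site of PR-deficient cells, and 1359 of these (61.7%, 59.6 to 63.7) were also at an E2+R5020 site there. Of the 1810 T47D E2 sites that were not at an E2 site of PR-deficient cells, 40 (2.21%, 1.58 to 3) were at an E2+R5020 site.

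By position, gained and lost sites were found on every chromosome. Among the 23 chromosomes with at least 50 sites in each list, the kept share of E2+R5020 sites ran from 67.3% on chromosome 15 (61.1 to 73.1) to 91.2% on chromosome 18 (80.7 to 97.1, 52 of 57). That of E2 sites ran from 42.8% on chromosome 5 (37.1 to 48.7) to 64.2% on chromosome 19 (59.4 to 68.7). On each of the 23 the share was higher for E2+R5020 sites. This follows from list length, since each had more E2 sites but nearly equal kept counts in the 2 lists. Sites within 2 Mb of a stretch of at least 3 Mb that held no site in any list, such as the centromeres, made up 2.58% of gained sites (1.82 to 3.56), 2.08% of kept E2+R5020 sites and 2.26% of lost sites (1.79 to 2.82). Gained sites lay a median of 65.9 kb from the nearest other E2+R5020 site, against 37.5 kb for kept sites of that list. Lost sites lay 33.1 kb from the nearest other E2 site, against 23.7 kb for kept sites of that list. The lists differ in number of sites, so these distances are compared only within a list.

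A large part of both classes was seen in no other list of the series. Of the gained sites 648 (46.5%, 43.8 to 49.1) and of the lost sites 1943 (56.4%, 54.7 to 58.0) were in none of the 8 other lists, against 1229 of the kept E2+R5020 sites (28.8%, 27.4 to 30.2) and 1268 of the kept E2 sites (29.5%, 28.2 to 30.9). Over all sites the share was 33.1% with E2+R5020 and 41.5% with E2. At least 3 of the 8 lists held 4.02% of the gained sites (3.05 to 5.19), 5.14% of the lost sites (4.42 to 5.93), 13.1% of the kept E2+R5020 sites (12.1 to 14.1) and 12.5% of the kept E2 sites (11.5 to 13.5). Over all sites this share was 10.9% with E2+R5020 and 9.21% with E2.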

How the data were processed

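Bowtie2 and MACS are the tools, and hg19 the build, named per the submitters' processing notes, without versions or settings. Vehicle had been subtracted from each list and IgG from the reChIP list, per the labels, which do not say how. Each deposited list holds 5 columns for 1 library (chromosome, start, end, length, score), with positions counted from 1. The score is the authors' own deposited value per site and its unit is not given. The 26 samples are 26 groups of 1 library, and 10 have a list. Overlaps were computed in Python 3.11.15 with NumPy 2.4.6 and pandas 2.3.3, exact Clopper-Pearson intervals with SciPy 1.17.1, intervals of differences (Newcombe) with statsmodels 0.14.6, and plots with matplotlib 3.10.9. No significance test was made. The overlap functions were checked on simulated lists. Quintiles order sites by score, ties by length, then position. Named sites are the 10 of highest score in each class and the sites just inside and outside the overlap rule. The members, comparisons and settings were chosen with earlier results of these data known. Planned gene lists and motif searches were not run, because an hg19 sequence and annotation were not used here, and so no sequence is printed.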

Additional observations from a re-analysis of the deposited data

Results flagged for a closer look

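The number of ER sites moved in opposite directions in the 2 lines when R5020 was added to E2. The ratio of E2+R5020 to E2 sites was 0.731 in PR-deficient cells (5663 and 7742 sites) and 4.79 in T47D cells (19220 and 4014 sites). With 1 library per group this difference between lines was not tested. Depth is unknown, and the T47D lists differed in score step, 4.21 with E2+R5020 and 0.582 with E2. Their lowest deposited scores were 16.86 and 15.12. The part of depth and score step in the 2 ratios was not tested either.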

How the results depend on the processing

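Leaving out chromosome Y, sites near long stretches without sites, or chromosomes 3, 8, 10 and 11, and merging sites within 500 bp, changed neither kept share beyond its interval. The other planned settings moved the shares, in the order E2+R5020 sites, E2 sites. They were 68.8% and 50.3% under the 50% rule (an overlap of 50% or more of each site), 52.1% and 38.1% with centres within 200 bp and with sites of 200 bp, 78.1% and 53.9% with the lowest score raised by 1 step, 83.4% and 61.1% with only the higher-scoring 50% of each list, and 67.0% for each with lists of equal length. Counting sites within 500 bp as shared gave 56.7% of E2 sites. Gained sites numbered 2712 with centres within 200 bp, 2713 with sites of 200 bp and 471 in the higher-scoring 50%. Lost sites numbered 1507 in the higher-scoring 50% and 1866 with lists of equal length. In T47D cells the shares were 0.234% and 1.12% under the 50% rule, 2.64% and 12.3% with centres, 2.63% and 12.3% with sites of 200 bp, and 6.28% and 6.23% with equal lengths.

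PR-deficient minus T47D was positive under each setting, but under the 50% rule this follows from length, since the T47D lists have median sites of 209 bp with E2+R5020 and 1171 bp with E2. For E2+R5020 sites it was 68.6 points under the 50% rule, 49.5 with centres or sites of 200 bp, 73.8 with the raised score and 60.7 with equal lengths, and for E2 sites 49.2, 25.8, 34.1 and 60.8.

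Gained minus lost kept its sign in both leading lists. For the PR-deficient R5020 list it was 0.761 points under the 50% rule, 8.82 with centres, 8.79 with sites of 200 bp, 20.1 with the raised score and 34.0 with equal lengths. For the T47D E2 list it was -15.6, -11.3 and -11.3 under the first 3 of these and -28.5 with equal lengths. The further settings, chosen after seeing the data, left the classes as they were. For the R5020 list they gave 23.1 points among sites of 800 to 1600 bp, 16.7 with centres and 1.17 with the 50% rule for the other list only, and for the T47D E2 list the last 2 gave -17.4 and -18.2. Small differences turned in sign: for the T47D PR list of E2, -0.123 with centres or sites of 200 bp and -0.743 among sites of 800 to 1600 bp, for the T47D ER list of R5020, -0.138 with the 50% rule for the other list, and for the T47D PR list of R5020, 0.0113 with the raised score (-0.352 as reported, both intervals holding 0). Lost sites were above kept sites in the T47D E2 list in 2 of 5 quintiles with centres and 3 with sites of 200 bp, and in the R5020 list in 1 of 5 with each. The cause was not tested. No paired analysis was possible because no group has a second library. Depth is unknown, so its effect on the lists could not be measured.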
